A study of Homo sapiens with 16 samples.

Results

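TXNIP, its arrestin relatives ARRDC2, ARRDC3 and ARRDC4, the transcription factor gene MLXIP and the mTOR inhibitor gene DDIT4 were followed in 4 human lines of the B cell lineage. These 6 genes were taken by name from 18417 measured by a single-gene probe set. Their probe sets were to be chosen by the mean over 16 arrays, the only measured value the choice used, but each of the 6 genes had just 1 probe set carrying its symbol alone. Those means were 9.92 for TXNIP, 6.52 for ARRDC2, 9.86 for ARRDC3, 5.28 for ARRDC4, 7.68 for MLXIP and 8.43 for DDIT4 on the log2 scale. They describe the probe sets and are not compared between genes, because probes differ in brightness. The genes were picked with earlier results of these data known, among them the rises of TXNIP and DDIT4 in KMS-11, so those 2 differences are given as a description with no test.

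Multiple myeloma, a tumour of antibody-secreting plasma cells, is the origin of RPMI8226, KMS-11 and U266. IM-9 is listed by the labels as a myeloma line but is widely described as a B lymphoblastoid line. Every line was measured as parental cells after 24 hours at 20% oxygen and as a hypoxia-resistant derivative, marked by HR after the line's name, after 24 hours at 1% oxygen. Each of these 8 groups had 2 arrays. HR cells were measured only at 1% and parental cells only at 20% oxygen, and each comparison joins both: acquired resistance and the oxygen at the time of measurement cannot be told apart. The labels do not state if a group's 2 arrays were separate cultures, nor how the HR cells were derived. A p-value within a line thus reflects just how far these arrays scatter, which may be technical.

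The arrays of a group correlated at 0.993 to 0.996 across probe sets, and array medians lay between 6.22 and 6.34. Among the plasma cell markers, JCHAIN, IRF4, PRDM1, XBP1 and SDC1 were above the median of all values, 6.27, in all 8 groups. CD38 was below it in U266, IM-9 and KMS-11 and SLAMF7 in RPMI8226 and KMS-11. All 7 measured B cell markers were above it in parental IM-9, against 4 in parental RPMI8226 and 2 each in parental KMS-11 and U266. Of the 4 myeloid markers 0 reached it in any group, of the 6 stromal markers 1 or 2 did, and of the 6 T and NK cell markers 0 or 1, the gene being NCAM1 in RPMI8226 and U266.

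The alpha-arrestins are adaptor proteins that link membrane proteins to ubiquitin ligases of the NEDD4 family and so direct their endocytosis. TXNIP also binds thioredoxin, and it lowers glucose uptake by promoting the internalisation of the glucose transporter GLUT1, the product of SLC2A1. Its transcription is driven by MondoA, the product of MLXIP, which together with its partner MLX responds to glucose 6-phosphate at carbohydrate response elements, and ARRDC4 is a further known MondoA target. ARRDC3 is known for acting on the beta-2 adrenergic receptor and integrin beta 4. DDIT4, also called REDD1, is a target of hypoxia-inducible factor (HIF) that restrains the kinase complex mTORC1 through the TSC proteins.

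The stretches just before the starts of TXNIP, ARRDC4 and DDIT4 are shown because these 3 genes are the ones for which MondoA or HIF is the textbook regulator. The sequences are RefSeq's, 250 bases each, read 5′ to 3′ on the gene's strand. Capitals mark the paired carbohydrate response motif in TXNIP (CACGNG, any 5 bases, CACGNG), the E-box CACGTG in ARRDC4 and the hypoxia response core ACGTG in DDIT4.
TXNIP (GRCh38.p14, chr1:145996580-145996829, - strand): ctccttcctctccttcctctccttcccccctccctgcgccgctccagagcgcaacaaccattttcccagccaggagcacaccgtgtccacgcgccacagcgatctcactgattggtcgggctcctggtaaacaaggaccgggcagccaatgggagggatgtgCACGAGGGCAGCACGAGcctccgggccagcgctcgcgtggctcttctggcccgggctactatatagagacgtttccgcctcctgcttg
ARRDC4 (GRCh38.p14, chr15:97960453-97960702, + strand): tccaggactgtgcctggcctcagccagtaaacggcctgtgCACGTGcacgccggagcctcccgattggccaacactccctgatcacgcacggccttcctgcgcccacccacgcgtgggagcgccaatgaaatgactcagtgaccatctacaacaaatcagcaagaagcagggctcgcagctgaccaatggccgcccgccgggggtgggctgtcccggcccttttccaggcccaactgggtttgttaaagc
DDIT4 (GRCh38.p14, chr10:72273674-72273923, + strand): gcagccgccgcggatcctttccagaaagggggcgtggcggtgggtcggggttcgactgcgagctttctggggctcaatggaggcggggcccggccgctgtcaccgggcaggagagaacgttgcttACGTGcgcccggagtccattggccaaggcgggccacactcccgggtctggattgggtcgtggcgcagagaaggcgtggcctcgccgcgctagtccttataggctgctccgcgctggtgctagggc
All 6 genes had windows in the RefSeq table, 9 in all, each of 300 bases with 50 bases after the start. Motifs were searched on both strands. The paired motif, spelled with the known TXNIP site in mind, lay 88 to 72 bases before the start of TXNIP as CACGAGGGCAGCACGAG and was found in 20 of 35116 windows of all genes (0.0570%). The E-box lay 210 to 205 bases before the start of ARRDC4 and was present in 7.26% of windows. ACGTG, which every CACGTG also contains, lay 125 to 121 bases before the start of DDIT4 and was present in 21.4% of windows. It was also found in the window of the second TXNIP start. The forkhead core GTAAACA (3.42% of windows) was found at the TXNIP start, and in ARRDC3 only at its second start. CCAAT (34.6% of windows) was found at the starts of all the genes except ARRDC2. The map of matches shows that none of the first 4 motifs lay at the starts of ARRDC2, ARRDC3 and MLXIP. A match is a description of the letters and says nothing about binding in these cells.

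**Figure D1:**
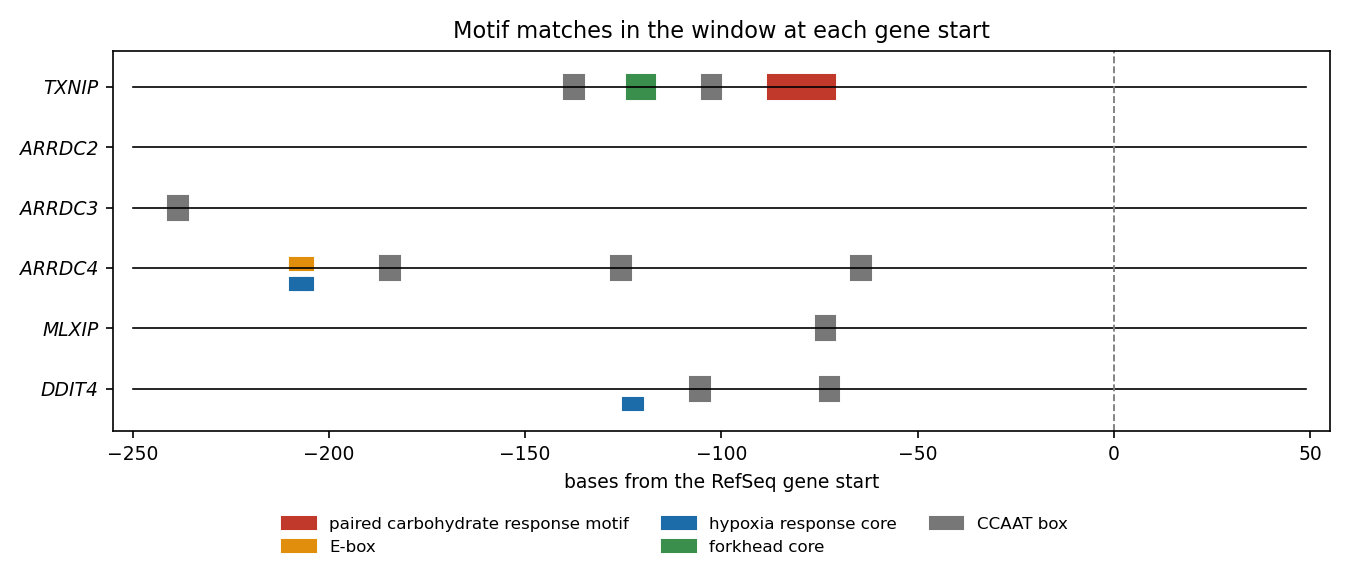
Matches of 5 motifs (coloured boxes) in the window from 250 bases before to 50 bases after the RefSeq start of each gene; the x axis gives bases from the start, marked by the dashed line. The paired motif of TXNIP sits 88 to 72 bases before its start, and the hypoxia response core of DDIT4 at 125 to 121 bases.

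TXNIP was higher in HR cells than in parental cells of every line. HR over parental was 6.17-fold in U266, 3.01-fold in KMS-11, 1.57-fold in IM-9 and 1.49-fold in RPMI8226. On the 2 arrays of each group, given as log2 intensities, TXNIP read 11.21 and 11.04 in parental RPMI8226 and 11.68 and 11.71 in RPMI8226-HR. It read 7.88 and 7.92 in parental KMS-11 and 9.45 and 9.53 in KMS-11-HR. The 2 conditions did not overlap in either line, and parental RPMI8226 was above every array of the other lines, HR arrays included. In parental U266 the values were 8.12 and 8.06, and in U266-HR 10.71 and 10.72. IM-9 gave 9.84 and 9.87 in parental and 10.56 and 10.45 in HR cells. Here too the conditions did not overlap, and the separation was widest in the 2 lines with the lowest parental TXNIP, U266 and KMS-11. By line, 57.7% to 65.1% of all genes tested did not overlap between conditions.

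As HR minus parental on the log2 scale with its standard error, TXNIP rose by 0.58 ± 0.07 in RPMI8226 (adjusted p = 4.74e-05), by 2.62 ± 0.07 in U266 (adjusted p = 4.62e-11) and by 0.65 ± 0.07 in IM-9 (adjusted p = 1.36e-05). In KMS-11 the difference was 1.59 ± 0.07, given with no test. Of the 12639 genes bright enough to test, 0.720% were called higher in RPMI8226, U266 and IM-9 together. By size of the difference TXNIP stood at place 12 from the top in U266, 359 in RPMI8226 and 423 in IM-9. An F test leaving out KMS-11 found that its HR effect differed between the remaining lines (adjusted p = 8.67e-09, where 45.1% of genes passed). The order of group means ran from RPMI8226-HR (11.70) and parental RPMI8226 (11.12) through U266-HR (10.71), IM-9-HR (10.50), parental IM-9 (9.86) and KMS-11-HR (9.49) to parental U266 (8.09) and parental KMS-11 (7.90). Neighbours in this order differed by more than their spread at all 7 steps, that is, their arrays did not overlap and their means lay more than 2 standard deviations of the fit apart. Parental means spanned 3.22 and HR means 2.21.

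**Figure D2:**
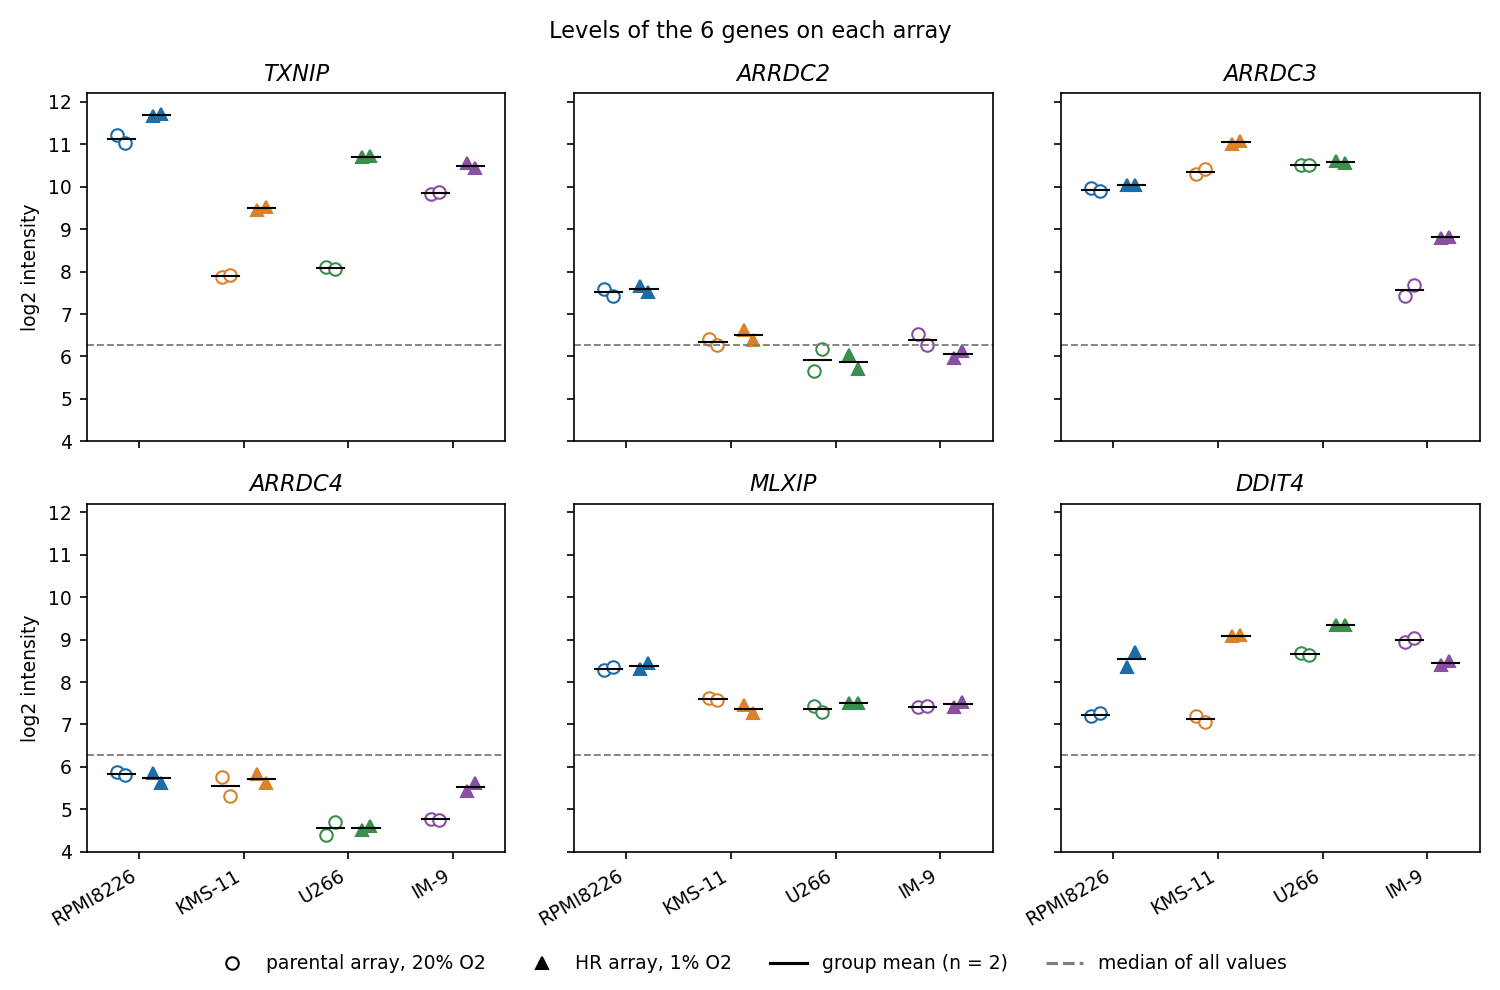
Log2 intensity (y axis) of each gene on every array, by line (x axis); open circles are parental arrays at 20% oxygen, filled triangles HR arrays at 1% oxygen, black bars the group means of 2 arrays, and the dashed line the median of all values, 6.27. TXNIP triangles lie above the circles in each line, DDIT4 triangles above them in 3 lines and below them in IM-9, and ARRDC4 stays below the dashed line on all arrays.

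ARRDC3 was raised in 2 of the 4 lines, KMS-11 and IM-9, while RPMI8226 and U266 did not pass the test. Its log2 intensities were 10.29 and 10.42 in parental KMS-11 and 11.02 and 11.07 in KMS-11-HR. They were 7.43 and 7.68 in parental IM-9 and 8.80 and 8.82 in IM-9-HR. IM-9 stood apart as the line with the least ARRDC3, and its HR arrays were still below every array of the myeloma lines. RPMI8226 read 9.98 and 9.89 against 10.05 and 10.04, and U266 read 10.51 on both parental arrays against 10.62 and 10.56. The conditions did not overlap in any line, but in the latter 2 lines the gap was small. Such a lack of overlap held for 57.7% to 65.1% of all genes tested, by line.

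ARRDC3 rose by 0.69 ± 0.08 in KMS-11 (1.61-fold, adjusted p = 0.00026) and by 1.26 ± 0.08 in IM-9 (2.39-fold, adjusted p = 1.91e-07). The differences in RPMI8226 and U266 were 0.11 ± 0.08 (adjusted p = 0.371) and 0.08 ± 0.08 (adjusted p = 0.563), with 95% intervals from −0.07 to 0.28 and from −0.09 to 0.25. Over all genes tested, 1.21% were called higher in KMS-11 and IM-9 together. The HR effect differed between the 4 lines in the F test (adjusted p = 1.05e-05, where 45.4% of genes passed). KMS-11-HR had the highest group mean, 11.05, and parental IM-9 the lowest, 7.56. Next to each other in that order, U266-HR and parental U266, parental U266 and parental KMS-11, and RPMI8226-HR and parental RPMI8226 did not differ beyond their spread.

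ARRDC2, a less studied arrestin, did not pass the test in any line. Its level set RPMI8226, with group means of 7.51 parental and 7.59 HR, apart from the other 6 groups, which lay between 5.86 and 6.51. On 8 of 16 arrays it was above 6.27. The array pairs were 7.60 and 7.42 against 7.65 and 7.53 in RPMI8226 and 6.40 and 6.26 against 6.63 and 6.39 in KMS-11. In U266 they were 5.65 and 6.18 against 6.03 and 5.70. Parental and HR arrays overlapped in these 3 lines. In IM-9 the pair was 6.52 and 6.27 in parental cells and 5.96 and 6.13 in HR cells. They did not overlap, nor did 65.1% of all genes tested there. The differences were 0.08, 0.18, −0.05 and −0.35 (± 0.16 each) across RPMI8226, KMS-11, U266 and IM-9, with adjusted p = 0.768, 0.563, 0.891 and 0.113. The 95% interval in IM-9 reached from −0.70 to 0.00. The F test gave adjusted p = 0.236.

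ARRDC4, the closest relative of TXNIP among these arrestins, was above 6.27 on 0 of 16 arrays and was the 1 gene of the 6 left out of the tests by the filter on dim genes. Its group means lay between 4.55 in parental U266 and 5.84 in parental RPMI8226. In IM-9 it read 4.77 and 4.74 in parental cells and 5.43 and 5.62 in HR cells, a difference of 0.76 ± 0.14. In the other lines the arrays of the conditions overlapped, with differences of −0.11 in RPMI8226, 0.19 in KMS-11 and 0.02 in U266 (± 0.14 each). With no filter, limma gave adjusted p = 0.00177 in IM-9 and 0.56 to 0.965 in the other lines. At this brightness a change in the transcript may be understated, and the table holds no detection calls.

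MLXIP, the gene of MondoA, did not pass the test in any line, and its largest difference was −0.24 on the log2 scale, in KMS-11. It read 8.28 and 8.36 in parental RPMI8226 and 8.32 and 8.44 in RPMI8226-HR. KMS-11 gave 7.63 and 7.58 in parental and 7.45 and 7.28 in HR cells, U266 7.44 and 7.29 against 7.51 on both HR arrays, and IM-9 7.42 and 7.43 against 7.42 and 7.54. RPMI8226 was the highest line in both conditions, as it was for TXNIP and ARRDC2. The differences were 0.06, −0.24, 0.15 and 0.06 (± 0.08 each) across RPMI8226, KMS-11, U266 and IM-9, with adjusted p = 0.629, 0.0758, 0.218 and 0.615. The 95% intervals reached from −0.11 to 0.23 in RPMI8226, from −0.41 to −0.08 in KMS-11, from −0.02 to 0.32 in U266 and from −0.11 to 0.22 in IM-9. In the F test the differences between lines gave adjusted p = 0.0411, and 9 of the 16 fits that left out 1 array did not pass (adjusted p from 0.0269 to 0.19). Without KMS-11 the F test gave adjusted p = 0.7.

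DDIT4 was higher in HR cells of the 3 myeloma lines and lower in IM-9-HR. Its log2 intensities were 7.20 and 7.27 in parental RPMI8226 and 8.35 and 8.72 in RPMI8226-HR. They were 7.19 and 7.07 in parental KMS-11 and 9.09 and 9.10 in KMS-11-HR. Parental RPMI8226 and KMS-11 held the lowest DDIT4 of all groups. U266 read 8.69 and 8.63 in parental and 9.35 and 9.34 in HR cells, and IM-9 read 8.94 and 9.04 in parental and 8.41 and 8.50 in HR cells. In no line did the arrays of the conditions overlap, which by line held for 57.7% to 65.1% of all genes tested. In IM-9 both HR arrays were below both parental arrays.

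DDIT4 rose by 1.30 ± 0.10 in RPMI8226 (2.47-fold, adjusted p = 9.3e-07) and by 0.68 ± 0.10 in U266 (1.61-fold, adjusted p = 0.000301), and fell by 0.54 ± 0.10 in IM-9 (parental over HR 1.45-fold, adjusted p = 0.001). In KMS-11 it was 1.96 ± 0.10 higher (3.89-fold), given with no test. Among all genes tested, 0.356% were called higher in RPMI8226 and U266 and lower in IM-9. Leaving out KMS-11, the F test of its HR effect between lines gave adjusted p = 1.73e-06. Parental means spanned 1.86, from 7.13 in KMS-11 to 8.99 in IM-9, and HR means 0.89, from 8.45 in IM-9 to 9.34 in U266. In the order of group means, parental U266, RPMI8226-HR and IM-9-HR (8.66, 8.54 and 8.45) did not differ beyond their spread from one to the next, nor did KMS-11-HR and parental IM-9 (9.09 and 8.99) or parental RPMI8226 and parental KMS-11.

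**Figure D3:**
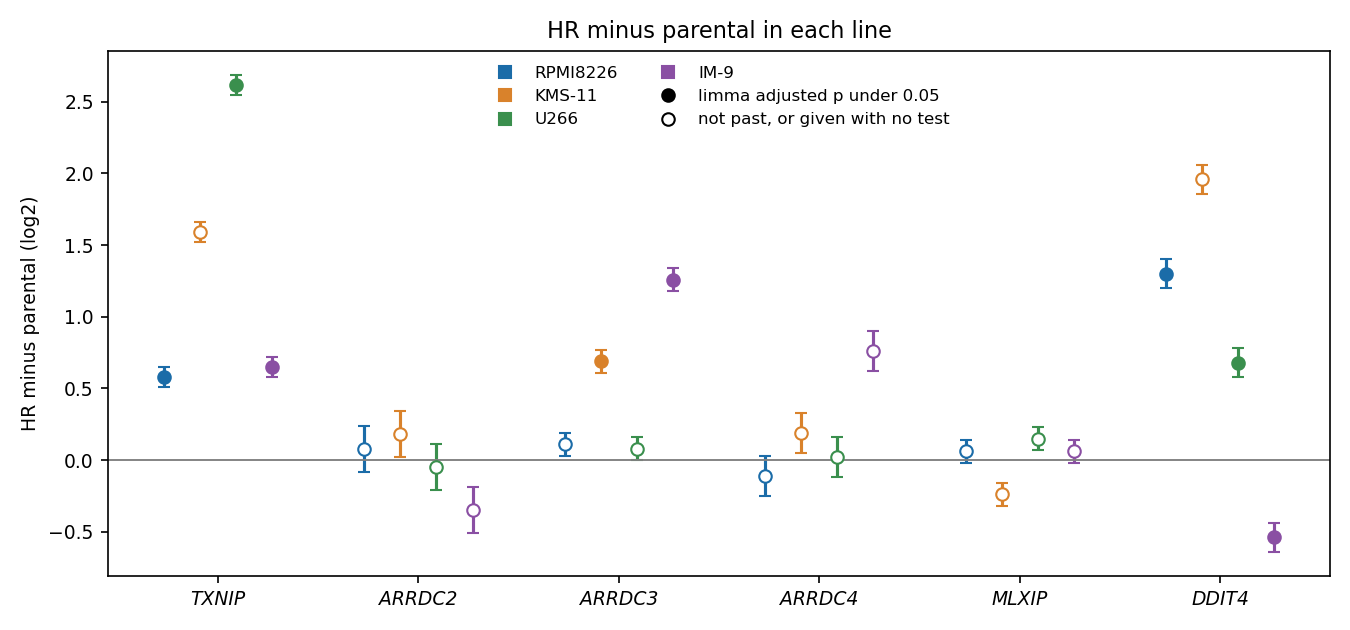
HR minus parental on the log2 scale (y axis) for the 6 genes (x axis), with the standard error of the limma fit; colours mark the lines, filled points passed an adjusted p of 0.05, and open points did not or, for ARRDC4 and for TXNIP and DDIT4 in KMS-11, had no test. TXNIP reaches 2.62 in U266, DDIT4 goes from 1.96 in KMS-11 to −0.54 in IM-9, and ARRDC2 and MLXIP have no filled point.

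Counted by line, 2 of the 5 genes with a test were called in RPMI8226, TXNIP and DDIT4, both higher. Of all genes tested, 26.0% were called there, 10.7% higher and 15.3% lower. In KMS-11 1 of 3 was called, ARRDC3, which was higher, against 8.27% of all genes (2.44% higher and 5.83% lower). In U266 2 of 5 were called, TXNIP and DDIT4, both higher, against 18.1% (9.68% higher and 8.42% lower). IM-9, with 35.7% of genes called (14.4% higher and 21.3% lower), had 3 of 5, TXNIP and ARRDC3 higher and DDIT4 lower. Arrays of the conditions did not overlap for 3, 4, 4 and 5 of the 6 genes across RPMI8226, KMS-11, U266 and IM-9. For 57.7%, 59.1%, 62.0% and 65.1% of all genes they did not. The KMS-11 count holds TXNIP and DDIT4, whose rises there were known when the genes were picked. ARRDC2 and MLXIP were called in 0 of 4 lines, as were 42.0% of genes, and TXNIP and DDIT4 in each of the 3 lines where they had a test. Of all genes, 6.04% were called in at least 3 of the 4 lines. Marker levels moved in the same comparisons. The summed level of the 7 B cell markers was lower in HR cells of IM-9 (64.00 to 64.05 against 68.02 to 68.16), RPMI8226 (46.88 to 47.40 against 50.79 to 51.38) and U266 (38.71 to 38.93 against 39.46 to 39.73) and slightly higher in KMS-11-HR (42.51 to 42.70 against 42.36 to 42.46). In RPMI8226 the lower sum came from CR2 (8.26 to 4.68), FCER2 (9.32 to 8.01) and CD22 (5.25 to 5.11), while the other 4 markers, MS4A1 among them, were higher. In U266 CD79A fell most (6.65 to 5.93), CR2, CD22, CD79B and FCER2 were lower, and MS4A1 and PAX5 were higher. In IM-9 CR2 fell most, then CD22 (10.41 to 9.11) and CD79A (9.68 to 9.09). CD79B and FCER2 were also lower there, while MS4A1 and PAX5 were slightly higher. In KMS-11 CR2 rose most (9.15 to 9.49), with CD22, CD79A and CD79B higher and MS4A1, PAX5 and FCER2 lower. The summed plasma cell markers were higher in RPMI8226-HR (86.53 to 86.66 against 84.51 to 84.85) and IM-9-HR (88.20 on both arrays against 87.08 to 87.41), lower in U266-HR (88.26 to 88.33 against 89.44 to 89.74) and overlapping in KMS-11. The rise in RPMI8226 came from CD38 (9.02 to 10.54), SLAMF7 (4.93 to 5.73) and IRF4 (10.56 to 10.93). TNFRSF17, PRDM1, XBP1 and MZB1 were lower there. SLAMF7 fell most in U266 (10.14 to 8.75), while PRDM1, XBP1, IRF4 and MZB1 were higher. JCHAIN rose most in IM-9 (12.38 to 12.96), while CD38, XBP1, IRF4, SLAMF7 and MZB1 were lower. Summed T and NK cell markers were lower in RPMI8226-HR (31.51 to 32.18 against 32.76 to 32.82) and U266-HR (29.64 to 29.73 against 30.43 to 30.98) and higher in KMS-11-HR (29.05 to 29.48 against 28.69 to 28.89). Most of both falls was NCAM1 (9.83 to 8.34 in RPMI8226 and 7.63 to 6.46 in U266). CD3D and CD3G were higher in HR cells of both lines, CD2 and KLRD1 higher in RPMI8226-HR and lower in U266-HR. Myeloid sums lay between 20.01 and 21.58 and stromal sums between 31.49 and 32.38 on all arrays. The part of these markers in the results was not tested. The median difference of the 6 genes, the untested ARRDC4 included, was 0.09, 0.12 and 0.35 in RPMI8226, U266 and IM-9. Over all genes tested it was −0.01, −0.01 and −0.06. In KMS-11 the median of the 6 was 0.44. It holds the rises of TXNIP and DDIT4 known when the genes were picked and is a description. ARRDC3 was higher on average in 4 of 4 lines, as were 5.48% of genes, ARRDC4 and MLXIP in 3, and ARRDC2 in 2. TXNIP was higher in 4 and DDIT4 in 3. Those 2 counts hold the KMS-11 rises known when the genes were picked and are a description.

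With the line as the unit, limma called 0 of the 3 genes tested over 4 lines, and 0% of all genes. ARRDC3 averaged 0.53 ± 0.21 (unadjusted p = 0.0415, adjusted p = 0.764), ARRDC2 −0.03 ± 0.10 (adjusted p = 0.951) and MLXIP 0.01 ± 0.09 (adjusted p = 0.993). Over all genes, 6.27% had an unadjusted p under 0.05. The means of TXNIP and DDIT4 over the 4 lines, 1.36 ± 0.35 and 0.85 ± 0.38, hold the KMS-11 differences known when the genes were picked and are a description with no test. Over the 3 lines without KMS-11, TXNIP averaged 1.28 ± 0.44 (unadjusted p = 0.0348, adjusted p = 0.913) and DDIT4 0.48 ± 0.36 (unadjusted p = 0.238, adjusted p = 0.913), where 0 of all genes passed and 3.92% had an unadjusted p under 0.05. Without IM-9 the mean of DDIT4 was 1.32 over the 3 myeloma lines and that of ARRDC3 was 0.29, and without U266 the mean of TXNIP was 0.94.

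The genes lying next to the members on their chromosomes were set beside them to show the level of the surrounding segment. Of the 20 tested genes nearest to TXNIP on chromosome 1, 0 had a larger difference than TXNIP in any line, and their medians were 0.11, −0.06, −0.02 and −0.13 across RPMI8226, KMS-11, U266 and IM-9. In RPMI8226 the highest of them, ACP6, was at 0.53, against 0.58 for TXNIP. The neighbours of ARRDC3 on chromosome 5 had medians of 0.01 in KMS-11 and −0.05 in IM-9, the 2 lines where ARRDC3 rose, and 2 of 20 were above it in IM-9. Around DDIT4 on chromosome 10 the medians were 0.01, 0.07, 0.05 and −0.10, and the highest neighbour in every line was P4HA1, a subunit of collagen prolyl hydroxylase and itself a HIF target. P4HA1 was at 1.16, 2.01, 1.65 and 0.85, so in IM-9 it rose where DDIT4 fell. All 20 neighbours of DDIT4 were above it in IM-9. The neighbours of ARRDC2 on chromosome 19 had a median of −0.15 in IM-9, where ARRDC2 was at −0.35. There 8 of 20 fell, in a line where 21.3% of all genes were called lower. Calls were also seen around other members. In RPMI8226 5 of 20 fell around DDIT4 and 5 around ARRDC4, where 15.3% of all genes were called lower. In U266 5 of 20 rose around TXNIP, where 9.68% were called higher.

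**Figure D4:**
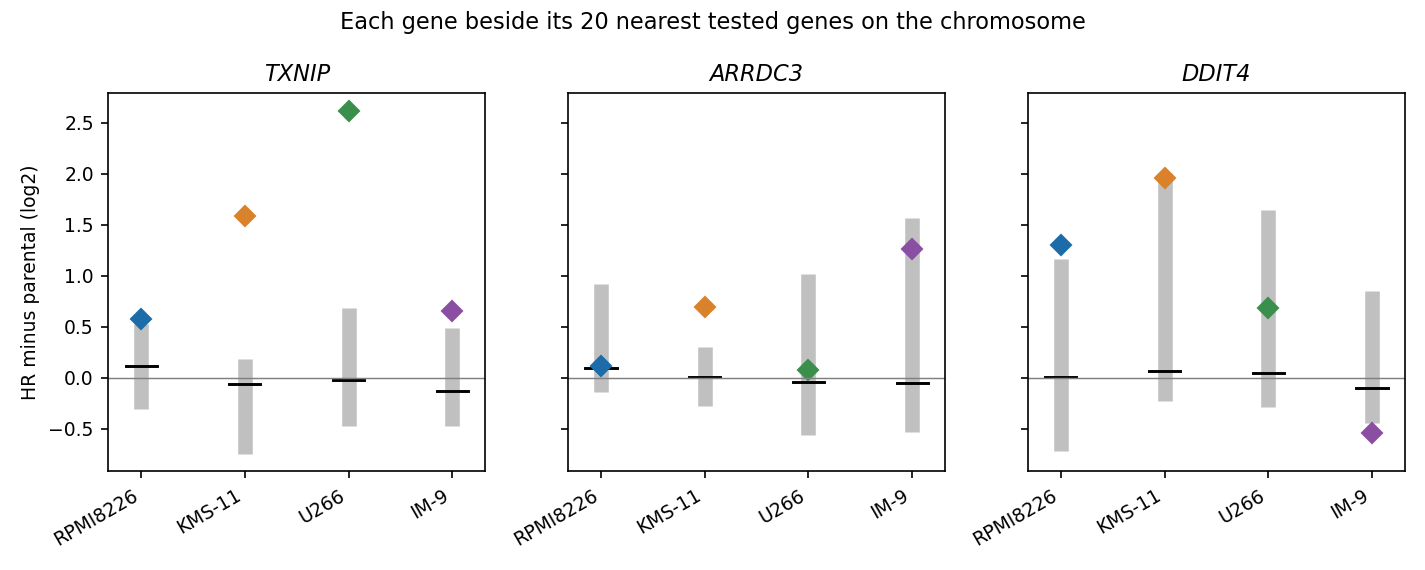
HR minus parental (log2, y axis) of TXNIP, ARRDC3 and DDIT4 (diamonds) in each line (x axis), beside the range (grey bars) and median (black lines) of the 20 nearest tested genes on the chromosome. TXNIP lies above its whole bar in each line; for DDIT4 the bar tops at 2.01 in KMS-11 are P4HA1, and in IM-9 DDIT4 lies under the bar.

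The genes whose level followed each member most closely were named by the smallest root mean square difference over the 8 group means, each gene centred on its own mean. This is a description over 8 groups that share 4 lines. For TXNIP the nearest was SLC2A1, the gene of GLUT1, at 0.51 log2 units, followed by CD81, a tetraspanin gene, at 0.67 and IDH2, a mitochondrial isocitrate dehydrogenase, at 0.71. For DDIT4 they were STC2, a stanniocalcin, and ZNF654 at 0.48 each and RDM1 at 0.50, and for ARRDC3 SAMD12 (0.27), the kinase gene CDK14 (0.30) and the complement inhibitor gene CD59 (0.38). ARRDC2 was followed by SLC75A1 (0.05), PYCR3 (0.09) and CCDC124 (0.10), ARRDC4 by ABL1 (0.12), NOL9 (0.17) and VANGL1 (0.18), and MLXIP by EXOSC1 and DISP2 (0.06 each) and NDUFA12 (0.07). Among the members themselves the closest pair was ARRDC2 and MLXIP, at 0.31, and the farthest TXNIP and ARRDC3, at 1.82. This measure also takes in the level differences between lines and how widely each gene ranges, not just the HR difference. ARRDC2 and MLXIP shared the sign of the HR difference in 1 of 4 lines, TXNIP and ARRDC3 in 4 of 4.

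Lists of pathway genes, chosen as the members were with earlier results known, were counted in the same fits. Their counts stand beside the share of all genes called in each line, which was 26.0%, 8.27%, 18.1% and 35.7% across RPMI8226, KMS-11, U266 and IM-9, and beside medians of all genes between −0.06 and −0.01. They are shown in the heat map, and list genes named here because they passed a test in a single line were chosen after their values were seen. Across lines limma called 0 genes of these 9 lists, while 16 had an unadjusted p under 0.05, 8 of them HIF targets and 4 of the glucose list.

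Of the genes of glucose entry and phosphorylation, SLC2A1 and GPI rose in every line. SLC2A1 rose by 1.35, 0.95, 2.23 and 0.58 (± 0.12) across RPMI8226, KMS-11, U266 and IM-9, where TXNIP was at 0.58, 1.59, 2.62 and 0.65. GPI, the enzyme that interconverts glucose and fructose 6-phosphates, rose by 0.51, 0.27, 1.02 and 0.20 (± 0.06). Of 10 tested genes, 4 rose in each of RPMI8226 and KMS-11, where 10.7% and 2.44% of all genes were called higher. In each of U266 and IM-9 3 of the 10 rose, where those shares were 9.68% and 14.4%. The other genes that rose were the transporter gene SLC2A3 in RPMI8226, KMS-11 and IM-9 and the hexokinase gene HK2 in RPMI8226, KMS-11 and U266. G6PC3, a glucose 6-phosphatase, fell in RPMI8226 and IM-9. The list's medians were 0.07, 0.16, 0.11 and 0.13.

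In the MLX and MAX network, the set of partners and rivals of MondoA, calls were scattered over 10 tested genes. MXI1, a MAX-binding repressor, rose by 0.76 ± 0.09 in KMS-11 and 0.82 ± 0.09 in U266 and was at −0.04 and 0.08 in RPMI8226 and IM-9. MLX, the direct partner of MondoA, fell by 0.34 ± 0.06 in KMS-11 and was at −0.14, −0.02 and −0.02 in RPMI8226, U266 and IM-9. MYCN fell by 1.33 ± 0.12 in RPMI8226 and by 0.35 ± 0.12 in IM-9. The fall in IM-9 was from 5.83 to 5.48, below the overall median intensity in both conditions. MXD1 rose in KMS-11 and IM-9, MXD4 in IM-9 and MYC in U266, and MYC, MAX and MNT fell in IM-9. MLXIPL, the gene of the MondoA relative ChREBP, did not pass the filter, with group means from 5.51 to 6.22. The medians of the list were −0.01, 0.04, 0.03 and −0.02.

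Of the other arrestins only ARRDC1 and ARRB1 were tested. ARRB1, the beta-arrestin that desensitises G protein-coupled receptors, fell by 1.29 ± 0.07 in RPMI8226, by 0.36 ± 0.07 in KMS-11, fell by 1.98 ± 0.07 in IM-9, and was at 0.05 in U266. ARRDC1, an alpha-arrestin, was at −0.19, −0.09, 0.08 and 0.10 and passed in no line.

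Of the 11 genes of NEDD4 family ligases, which alpha-arrestins recruit, and their adaptors, 6 fell and 0 rose in RPMI8226 (median −0.28 against −0.01 over all genes), where 15.3% of all genes were called lower and 10.7% higher. The 6 were NEDD4, at −0.84 ± 0.11, NEDD4L, ITCH, WWP1, HECW2 and the adaptor gene NDFIP2. HECW2 went from 6.05 to 5.53 in RPMI8226, below the overall median intensity in both conditions. WWP1 fell by 0.47, 0.44 and 0.31 (± 0.06) in RPMI8226, U266 and IM-9 and was at 0.06 in KMS-11. SMURF1 passed in no line. In KMS-11, with 8.27% of all genes called, limma called 0 of the 11, with 2 at an unadjusted p under 0.05. In U266 SMURF2 fell beside WWP1, and in IM-9 ITCH, SMURF2 and HECW2 rose and NEDD4L fell beside WWP1.

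In the thioredoxin system, whose core protein TXNIP binds, TXN was at 0.01, 0.08, −0.08 and 0.12 and passed in no line. SRXN1, which repairs oxidised peroxiredoxins, fell by 0.74, 0.66 and 0.26 (± 0.08) in RPMI8226, U266 and IM-9 and rose by 0.39 ± 0.08 in KMS-11. TXN2, PRDX1 and PRDX4 fell in RPMI8226, PRDX6 fell in KMS-11 and IM-9, TXNRD1 rose in KMS-11 and IM-9, and PRDX2 rose in U266 and IM-9. PRDX3 passed in no line. The medians over 10 genes were −0.12, −0.02, −0.05 and −0.07.

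On the mTORC1 side, where DDIT4 acts, 4 of 12 tested genes rose and 2 fell in IM-9, a line in which 35.7% of all genes were called. TSC1, a subunit of the TSC complex, rose by 0.72 ± 0.06 in IM-9 and was between −0.08 and −0.01 elsewhere. MLST8, an mTOR complex subunit, fell by 0.35 ± 0.06 in IM-9. SESN2, a leucine-sensing inhibitor of mTORC1, rose by 0.26 ± 0.08 in RPMI8226 and fell by 0.33 and 0.44 (± 0.08) in U266 and IM-9. RHEB, SESN1 and SESN3 also rose in IM-9, DEPTOR, SESN1 and SESN3 fell in RPMI8226, and DEPTOR rose in U266. In KMS-11 limma called 0 of these 12 genes, with 3 at an unadjusted p under 0.05, where 8.27% of all genes were called. DDIT4L, the relative of DDIT4, did not pass the filter.

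FOXO factors are known to drive growth-arrest genes, and TXNIP is counted among their targets. Of 10 other FOXO targets, 4 rose and 0 fell in KMS-11 (median 0.27 against −0.02 over all genes), where 2.44% of all genes were called higher and 5.83% lower. In IM-9, with 14.4% called higher and 21.3% lower, 5 rose and 0 fell (median 0.32 against −0.06). In RPMI8226 1 rose and 2 fell (median −0.06), and in U266 3 rose and 1 fell (median 0.01). CCNG2, a cyclin that slows the cell cycle, rose by 0.68, 0.71 and 0.70 (± 0.12) in KMS-11, U266 and IM-9 and was at 0.28 in RPMI8226. FBXO32, a ubiquitin ligase subunit, rose by 0.59 ± 0.11 in KMS-11 and 0.88 ± 0.11 in IM-9. The rise in IM-9 was from 5.15 to 6.03, below the overall median intensity in both conditions. PIK3IP1, an inhibitor of PI3 kinase, rose by 0.75 ± 0.16 in RPMI8226. BCL2L11 rose in KMS-11 and IM-9, KLHL24 in KMS-11 and U266, BCL6 in U266, and INSR and CDKN1B in IM-9. In RPMI8226 KLHL24 and CDKN1B fell, and in U266 GADD45A fell.

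Glucocorticoids are also known to induce DDIT4 and TXNIP in lymphoid cells. Of the 6 tested genes of that list, TSC22D3, SGK1 and NR3C1 were called in at least 1 line. Among all genes tested, 42.0% were called in 0 of 4 lines. TSC22D3 and SGK1 rose in RPMI8226 and both fell in U266, while in IM-9 TSC22D3 fell and SGK1 rose. The rise of SGK1 in RPMI8226 was from 4.99 to 5.27, below the overall median intensity in both conditions. The receptor gene NR3C1 fell by 0.54 ± 0.08 in RPMI8226, and PER1, KLF9 and DUSP1 passed in no line. In KMS-11, with 8.27% of all genes called, limma called 0 of the 6, with 2 at an unadjusted p under 0.05. The list's medians over the 4 lines were −0.10, 0.18, −0.10 and −0.09.

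The HIF targets taken for reference rose in 9, 8, 9 and 7 of 9 cases, in the same order of lines, with medians of 0.86, 1.24, 1.33 and 1.00. Of all genes tested, 10.7%, 2.44%, 9.68% and 14.4% were called higher in those lines. VEGFA, PDK1, NDRG1, BNIP3, KDM3A and P4HA1 rose in all 4 lines. In IM-9 1 of them fell, ANKRD37, by 0.65 ± 0.07, after rises of 0.79, 0.81 and 0.80 in the myeloma lines. DDIT4 had the same sign as ANKRD37 in each line, higher in the myeloma lines and lower in IM-9.

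**Figure D5:**
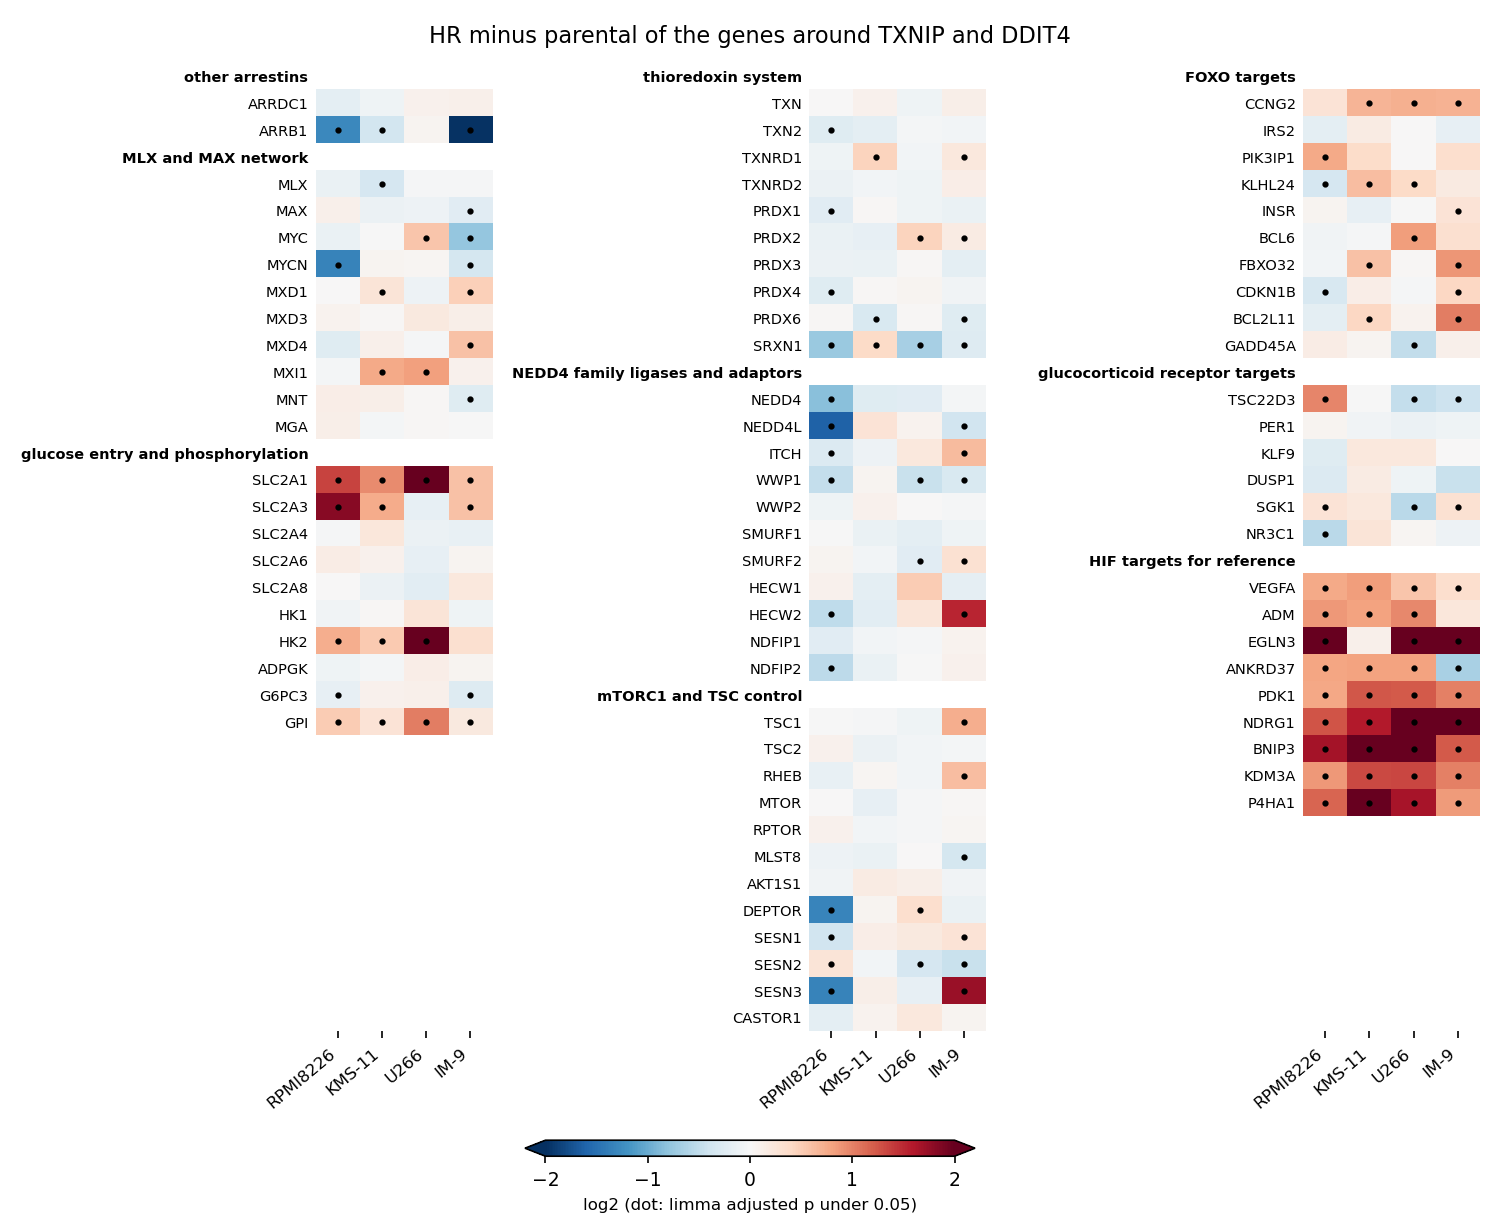
HR minus parental (log2, colour, clipped at 2 in either direction) of the tested genes of 9 pathway lists (rows) in each line (columns); dots mark an adjusted p under 0.05. SLC2A1 and GPI carry dots in all 4 columns, as do the HIF targets VEGFA, PDK1, NDRG1, BNIP3, KDM3A, P4HA1 and ANKRD37. ANKRD37 turns to −0.65 in IM-9.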

How the data were processed

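RNA of the 16 arrays was hybridised to Affymetrix expression arrays. Values are log2 intensities per probe set, as deposited by the authors, for 33297 probe sets. Per the submitters' processing notes Affymetrix Expression Console 1.3.0 was used; background correction and normalization are not given in the sources used here. The design text names another array generation (Human Gene 2.0 ST) than the platform table that gave the names, and it speaks of RNA from bone marrow stromal cells (BMSCs), while title and labels name the cell lines. Of the probe sets, 19460 carried 1 symbol, 1754 several, and 12083 were not in that table. Current symbols came from RefSeq (GRCh38.p14; 19429 matched, 31 not), as did the promoter sequences.

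Per gene the probe set with the highest mean was kept. Tests covered the 12639 of 18417 genes that exceeded 6.27, the overall median, on at least 2 arrays, and 5 of the 6 members passed. R 4.3.3 and limma 3.58.1 (lmFit, eBayes, 2-sided) were used, after a check on simulated data, with Benjamini-Hochberg adjustment over all genes tested and a threshold of 0.05. Within lines the 16 arrays formed 8 groups sharing 1 spread per gene. Across lines the fit used the 8 group means and took line as a block, without KMS-11 for TXNIP and DDIT4. F tests compared the 4 HR effects, or 3 without KMS-11 for TXNIP and DDIT4. The number of arrays limits the precision. Standard errors come from these fits. Members, lists and tests were chosen with earlier results of these data known. Named beside the members are list genes called 1 way in all 4 lines, otherwise the 3 with the smallest p across lines, and the 3 genes nearest to a member over group means that span at least 1 log2 unit. Alternatives changed normalization, filter, weights, pairing, spread, probe sets, lines and single arrays.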

Additional observations from a re-analysis of the deposited data

Results flagged for a closer look

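The HR effect of 4 genes differed between lines in limma's F test. For TXNIP the test without KMS-11 gave adjusted p = 8.67e-09, with rises in each of RPMI8226, U266 and IM-9. For DDIT4 it gave adjusted p = 1.73e-06, with rises in RPMI8226 and U266 and a fall in IM-9. Over 4 lines ARRDC3 gave adjusted p = 1.05e-05 and MLXIP adjusted p = 0.0411. MLXIP did not pass without KMS-11 (adjusted p = 0.7) or in 9 of the 16 fits that left out 1 array (adjusted p from 0.0269 to 0.19). Of all genes tested, 45.4% passed this test over 4 lines and 45.1% without KMS-11.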

How the results depend on the processing

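Within lines, the count of called members in RPMI8226 (2) and U266 (2) was the same under each of 24 alternatives. It was 3 in IM-9, and 4 with no filter, where ARRDC4 was added. It was 1 in KMS-11, and 2 with array weights, where MLXIP also passed (−0.24, adjusted p = 0.0287); that setting raised the genes called in KMS-11 from 1045 to 2083. Leaving out each array in turn gave 2 to 2, 1 to 1, 2 to 2 and 3 to 3 across RPMI8226, KMS-11, U266 and IM-9, and 3 to 4 in the F test. Over the alternatives TXNIP ranged from 0.49 to 0.66 in RPMI8226, 1.55 to 1.63 in KMS-11, 2.60 to 2.65 in U266 and 0.59 to 0.70 in IM-9, and DDIT4 in IM-9 from −0.59 to −0.49.

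Signs turned only for differences that had not passed: ARRDC2 in RPMI8226 (0.00 to 0.17 with 1 array left out) and U266 (−0.31 to 0.22), MLXIP in IM-9 (0.00 to 0.12), the mean of ARRDC2 over lines without IM-9 (0.07) and that of MLXIP without RPMI8226 (−0.01), U266 (−0.04) or IM-9 (−0.01). Across lines 0 members were called. With the 16 arrays as units and the line as a block 3 passed, ARRDC3 (adjusted p = 0.0266) and, with KMS-11 included and so as a description, TXNIP and DDIT4. With a replicate block 1 passed, TXNIP. Added after seeing the data, the same fits without KMS-11 called 1 (TXNIP, adjusted p = 0.0306; DDIT4 0.251; ARRDC3 0.128) and, with the replicate block, 0 (TXNIP adjusted p = 0.155). Arrays of a line are not independent units in these fits. The share of all genes that they called was not counted, so their counts of members cannot be set against it. Same-numbered arrays of a line deviated together with correlations of 0.20, 0.07, −0.05 and 0.11, so the numbers were not taken as pairs. The replicate block within lines kept each member's call and gave 3303, 939, 2315 and 4610 genes called in all. Dim probe sets limit what can be seen of ARRDC4 and ARRDC2. The same holds for SGK1 and HECW2 in RPMI8226, ARRB1 in KMS-11 and MYCN and FBXO32 in IM-9.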
